A study of Mus musculus with 12 samples.

Results

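Genes of the p53 feedback and early response circuit were followed library by library in bone marrow stem and progenitor cells of WT and Fancg KO mice. The 10 genes were Trp53, Mdm2, Mdm4, Ppm1d, Ccng1, Zmat3, Trp53inp1, Phlda3, Ddb2 and Dglucy, out of 35999 gene names in the deposited table. They were chosen by their role around p53 and partly by the difference in signal between the WT and the KO libraries of these same data, so every difference between genotypes given for them is a description, and none is a test of these genes. Of the 10 genes, 9 reached an average signal of 10 across the 12 libraries and entered the fit across all genes, which covered 8887 genes. Phlda3 fell below this level. The WT mean of Zmat3 was itself under 10, so Zmat3 passed through its higher KO values.

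The transcription factor p53 is kept scarce in unstressed cells by MDM2, a ubiquitin ligase that marks it for degradation, and by the related protein MDM4, which binds and masks its activating domain. DNA damage kinases release p53 from both, and p53 then induces its own inhibitors together with genes of cell cycle control, RNA regulation and DNA repair. The products that restrain p53, among them MDM2, cyclin G1 and the phosphatase encoded by Ppm1d, close a negative feedback loop. Blood stem cells that lack the Fanconi anemia repair pathway are known for signs of p53 activity, which limits their number.

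The 12 libraries came from LSK cells, the bone marrow fraction that lacks lineage markers, carries Sca-1 and KIT and holds stem cells and multipotent progenitors. Cells were sorted from 6 mice labelled WT and 6 mice labelled Fancg KO, which are Fancg-/-, and no agent was named for either group. Each library was taken from 1 mouse, and strain, age and sex were not given in the sources used here. The comparison addresses how loss of FANCG, a part of the complex that starts the repair of DNA cross-links, goes together with the expression of p53 genes in these cells.

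Values are called signal here and were taken as read count estimates scaled by 1 factor per library. Library totals ran from 1576081 to 2672915, for about 1235110 to 2471413 reads. The gene name Lars2 alone held 15.6% to 36.2% of the total in WT and 17.0% to 35.1% in KO libraries. Fancg, the targeted gene, had a lowest, median and highest signal of 4.76, 8.59 and 24.1 in WT and of 4.46, 7.91 and 14.5 in KO libraries. It did not separate the labels, and all directions given here are those of the KO label against the WT label. The summed signal of 4 Y-linked genes was 26.6 in WT replicate 3 and 49.7 in KO replicate 7, and the other 10 libraries had 189 to 435. Of 7 LSK markers, 6 were above 0 in every library, and Procr was not. Kit lay between 283 and 435. Ly6a, the gene of Sca-1, was low, at 6.15 to 17.4 in WT and 4.84 to 16.1 in KO libraries. It rests on about 3.2 to 25.6 reads per library. The neutrophil marker Ly6g was at 0 throughout. In bulk RNA, a change in the share of a cell type and a change in RNA per cell cannot be told apart.

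A promoter entry was found for 7 of the genes in the RefSeq table (build GRCm38.p6), each window running from 250 bases before to 50 bases after a transcript start. The windows were searched for the p53 decamer consensus, which is the same on both strands and which p53 binds as a tandem repeat. The consensus was found in 4 of 7 genes with an entry (57.1%), against 2582 of 27025 genes in the whole table (9.55%). The matching sites are shown because they belong to the gene of p53 itself and to 3 genes of its feedback. Each is printed 5′ to 3′ on the strand of the gene, with the decamer in capitals and 10 bases on either side:
Trp53, chr11:69580274-69580303, plus strand: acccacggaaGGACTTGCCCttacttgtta
Mdm2, chr10:117710925-117710954, minus strand: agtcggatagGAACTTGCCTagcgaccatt
Ppm1d, chr11:85311112-85311141, plus strand: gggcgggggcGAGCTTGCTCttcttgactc
Ccng1, chr11:40755452-40755481, minus strand: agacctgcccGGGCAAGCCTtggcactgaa

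The decamer began 75 bases before the start in Trp53, 132 in Ppm1d, 185 in Ccng1 and 186 in Mdm2. The best neighbouring decamer within 13 bases on either side had 1 mismatch to the consensus in Ccng1, where it lay directly upstream. It had 3 mismatches in Trp53 and Ppm1d and 4 in Mdm2. How often chance gives a best neighbour with as few mismatches was not computed, so these are not read as tandem sites. The windows of Mdm4, Phlda3 and Dglucy held no match. Zmat3, Trp53inp1 and Ddb2 had no entry. A match is a description of the sequence and was not tested as a binding site.

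**Figure D1:**
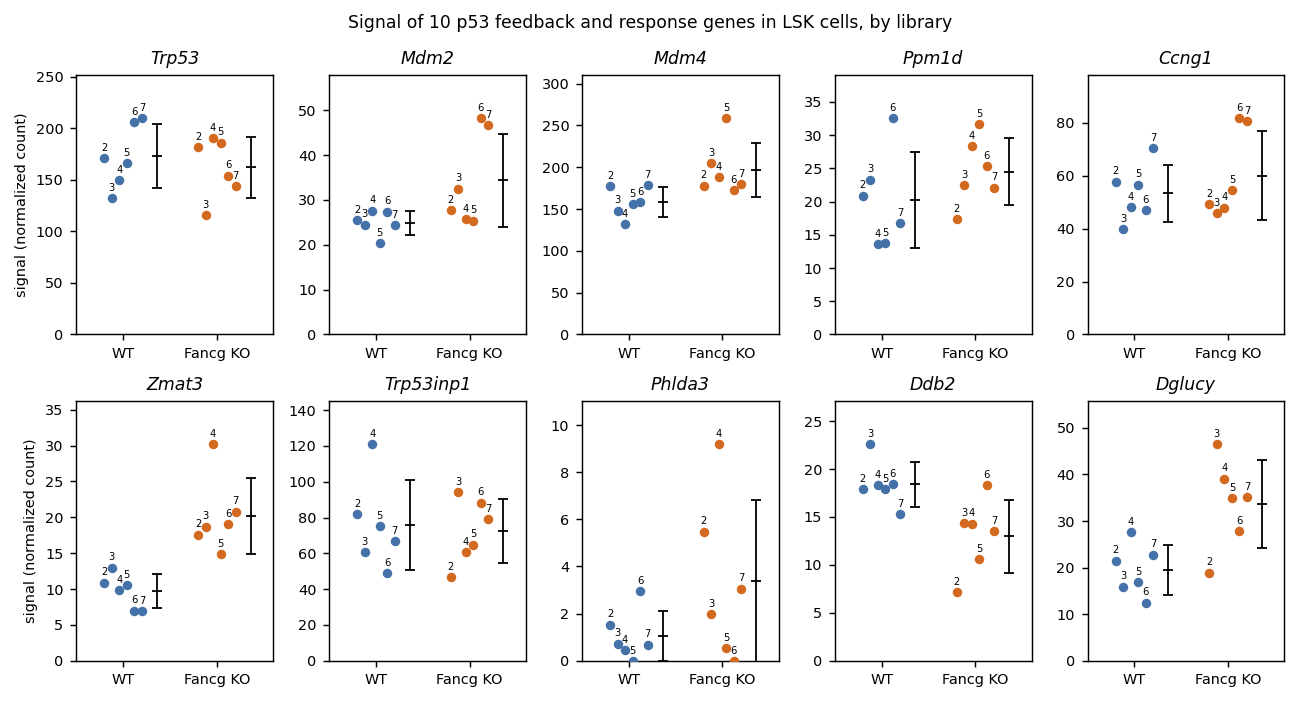
Signal (normalized count, linear axis from 0) of the 10 genes in each of 6 WT and 6 Fancg KO libraries; points carry the replicate number, and bars give mean ± SD, cut at 0 for Phlda3. Zmat3 ran from 6.92 to 13 in WT and from 14.9 to 30.2 in KO libraries, while the ranges of the other 9 genes overlapped.

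Trp53 encodes p53 (chr11:69580359-69591873, plus strand; GRCm38 with GENCODE M21, here and below). Its signal had a lowest, median and highest value of 132, 169 and 210 in WT libraries and of 116, 168 and 190 in KO libraries. The groups overlapped, with 5 of 6 KO libraries inside the WT range and KO replicate 3 below it. The difference, KO minus WT, was -0.09 on the scale of log2(signal + 1), with an SE of 0.16, and ran from -0.17 to 0.00 when each library was left out in turn. Signal per kb is signal divided by the joined length of all annotated exons of a gene, not of the transcript expressed. By this measure Trp53 was the highest of the 10 genes in both genotypes. It had 42.7 ± 7.57 (SD, n = 6) signal per kb in WT and 40.0 ± 7.30 (SD, n = 6) in KO libraries. The order depends on that length, 4.04 kb for Trp53 and 14.8 kb for Mdm4. Before division, mean signal in WT and KO libraries was 173 and 162 for Trp53 and 158 and 197 for Mdm4.

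Mdm2 encodes the ligase that degrades p53 and is induced by p53 (chr10:117688875-117710758, minus strand). Its signal ran from 20.3 to 27.6 in WT libraries, with a median of 25.0, and from 25.4 to 48.3 in KO libraries, with a median of 30.2. The KO libraries fell apart into KO replicates 6 and 7, at 48.3 and 46.6, and the other 4, which lay between 25.4 and 32.5 and touched the WT range. The difference was 0.41 with an SE of 0.20, or 1.33-fold, and became 0.30 without KO replicate 6 and 0.31 without KO replicate 7. Mdm2 rests on about 21.1 to 42.6 reads per library, and the part of counting error in its spread was not tested.

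Mdm4 encodes the partner of MDM2 that blocks the activating domain of p53 (chr1:132959484-133030561, minus strand). Its signal was 132, 157 and 179 at its lowest, median and highest in WT libraries and 173, 184 and 259 in KO libraries. Of the KO libraries, 4 lay above the highest WT library, and the other 2, at 173 and 178, were level with the upper WT libraries at 177 and 179. The difference was 0.31 with an SE of 0.13, or 1.24-fold. KO replicate 5 alone reached 259, and the difference was 0.23 without it.

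Ppm1d encodes the phosphatase WIP1, which removes phosphates from p53 and from the kinases that activate it (chr11:85311244-85347066, plus strand). Its signal was 13.6, 18.8 and 32.6 in WT libraries and 17.4, 23.9 and 31.6 in KO libraries, again as lowest, median and highest. All 6 KO libraries lay inside the WT range, whose top was set by WT replicate 6. The difference of 0.31 had an SE of 0.23.

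Dividing one gene by another within a library removes the scale of that library. The ratio of Mdm4 to Trp53 signal ran from 0.767 to 1.12 in WT and from 0.978 to 1.78 in KO libraries, with 4 of 6 KO libraries above all WT libraries and a log2 difference of 0.41 (SE 0.16). The ratio of Mdm2 to Trp53 ran from 0.116 to 0.186 in WT and from 0.136 to 0.325 in KO libraries, with 3 KO libraries above and a log2 difference of 0.51 (SE 0.28). Both inhibitors were thus high relative to Trp53 in part of the KO libraries, and the ranges overlapped. The ratio of Mdm2 to Mdm4 differed by 0.11 (SE 0.26) on the log2 scale.

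Ccng1 encodes cyclin G1, a p53 target that brings a phosphatase to MDM2 (chr11:40748552-40755311, minus strand). Its signal was 39.7, 52.4 and 70.6 in WT libraries and 46.0, 51.9 and 81.9 in KO libraries. KO replicates 6 and 7, the same libraries that were highest in Mdm2, stood at 81.9 and 80.8, and the other 4 lay between 46.0 and 54.5, inside the WT range. The difference over all libraries was 0.15 with an SE of 0.19. It was 0.05 without KO replicate 6, 0.06 without KO replicate 7, 0.07 without WT replicate 3 and 0.24 without WT replicate 7, and -0.02 when WT replicate 3 and KO replicate 7 were both left out.

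The product of Zmat3 is an RNA-binding zinc finger protein induced by p53 (chr3:32334792-32366014, minus strand). Its signal was 6.92, 10.2 and 13 in WT libraries and 14.9, 18.8 and 30.2 in KO libraries. Every KO library lay above every WT library, which was true of no other gene among the 10, and KO replicate 4 was the highest. Groups without overlap in either direction were found for 8 of the 8887 genes tested (0.0900%), and this pattern is part of what chose Zmat3. The difference was 0.99 with an SE of 0.23, or 1.98-fold on the log2(signal + 1) scale, which understates the change of low genes. It ran from 0.87 to 1.07 when each library was left out in turn. With 11.44 kb of joined exons, Zmat3 was low per kilobase, at 0.847 ± 0.207 (SD, n = 6) in WT and 1.77 ± 0.460 (SD, n = 6) in KO libraries. Each Zmat3 value rests on about 5.58 to 38.6 reads.

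Zmat3 was also set against other p53 targets of the same library. The ratio of Zmat3 to Mdm2 was 0.395 ± 0.117 (SD, n = 6) in WT and 0.634 ± 0.277 (SD, n = 6) in KO libraries, a log2 difference of 0.64 (SE 0.29). The ratio of Zmat3 to Ccng1 was 0.192 ± 0.0767 (SD, n = 6) and 0.359 ± 0.147 (SD, n = 6), a log2 difference of 0.91 (SE 0.32). KO libraries above all WT libraries numbered 4 for the first ratio and 3 for the second.

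**Figure D2:**
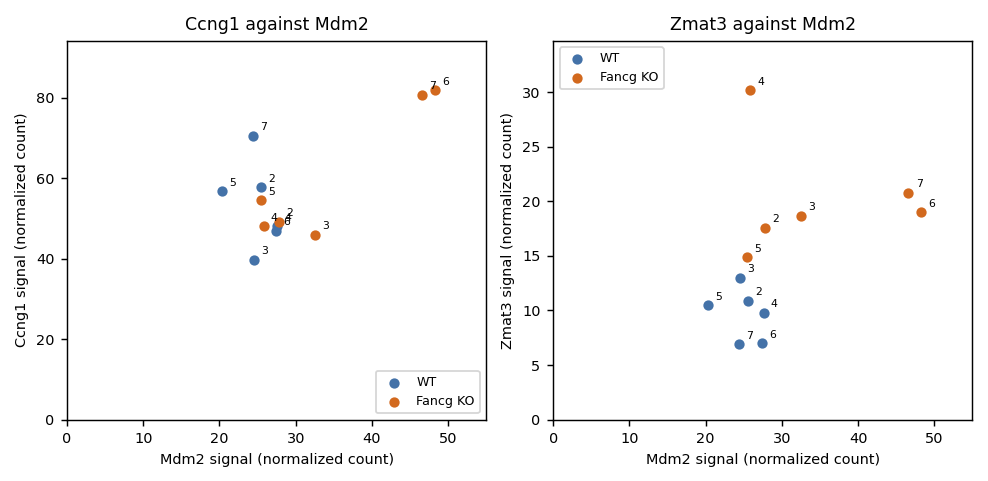
Signal of Ccng1 (left) and Zmat3 (right) against signal of Mdm2, 1 point per library with its replicate number, linear axes from 0. KO replicates 6 and 7 were high in both Mdm2 (48.3 and 46.6) and Ccng1 (81.9 and 80.8), while Zmat3 was highest in KO replicate 4, at 30.2, where Mdm2 was 25.8.

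Trp53inp1 encodes a stress-induced protein that works with the kinase HIPK2 on p53 (chr4:11156431-11174379, plus strand). Its signal was 48.8, 71.1 and 121 in WT libraries and 46.8, 72.1 and 94.3 in KO libraries. The groups overlapped almost fully and the highest value was in WT replicate 4. The difference was -0.05 with an SE of 0.22, and ran from -0.16 without WT replicate 6 to 0.10 without WT replicate 4.

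Phlda3 encodes a p53-induced repressor of the survival kinase AKT (chr1:135766119-135769136, plus strand). Its signal was 0, 0.709 and 2.95 in WT libraries and 0, 2.51 and 9.19 in KO libraries, from 0 to about 11.8 reads. WT replicate 5 and KO replicate 6 were at 0, and 3 KO libraries, led by KO replicate 4, lay above the WT range. The difference was 0.80, with an SE of 0.58 taken from the means of the log2 values, and was 0.48 without KO replicate 4. It rests on too few reads to describe a direction.

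Ddb2 encodes a subunit of the complex that recognises ultraviolet damage for excision repair, and is a p53 target (chr2:91211572-91236982, minus strand, where it overlaps Acp2 on the other strand). Its signal was 15.3, 18.1 and 22.6 in WT libraries and 7.15, 13.9 and 18.3 in KO libraries. Its direction was the opposite of that of Zmat3 and Dglucy: 5 of 6 KO libraries lay below the lowest WT library, and KO replicate 6 lay inside the WT range. The difference was -0.51 with an SE of 0.23, or 0.70-fold, and -0.36 without KO replicate 2, the lowest library.

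Dglucy encodes D-glutamate cyclase, a mitochondrial enzyme that breaks down D-glutamate (chr12:100779057-100896981, plus strand). Its signal was 12.5, 19.2 and 27.6 in WT libraries and 18.9, 35.0 and 46.5 in KO libraries. Of the KO libraries, 5 lay above the highest WT library and KO replicate 2 lay inside the WT range. The difference was 0.75 with an SE of 0.24, or 1.68-fold, and stayed between 0.64 and 0.90 when each library was left out in turn. Strand-specific counting was not stated, so reads of overlapping genes on opposite strands, as for Ddb2 and Acp2, cannot be told apart.

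Ordered by signal per kb in WT libraries, Trp53 was followed by Ccng1 (15.2 ± 3.08, SD, n = 6), Trp53inp1 (11.7 ± 3.88), Mdm4 (10.7 ± 1.21), Ddb2 (6.73 ± 0.864), Ppm1d (6.35 ± 2.27), Mdm2 (4.91 ± 0.526), Dglucy (4.25 ± 1.18), Zmat3 (0.847 ± 0.207) and Phlda3 (0.680 ± 0.674). The WT range of Trp53 did not overlap that of Ccng1, nor did Mdm4 overlap Ddb2 or Dglucy overlap Zmat3. All other neighbours in this order had overlapping ranges. In KO libraries Dglucy stood sixth and Ddb2 eighth, with means of 7.33 and 4.76 signal per kb.

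Across the 9 genes tested, 6 were higher in KO libraries, and 50.7% of all genes tested were. Unadjusted limma p-values under 0.05 went to Zmat3, Dglucy and Mdm4 on the higher side, where 1.98% of all genes fell, and to Ddb2 on the lower side, where 1.69% fell. After adjustment over all 8887 genes (limma, Benjamini-Hochberg) none of the 9 had a p under 0.05, and 0 genes of the whole table did (0.00%), while 326 (3.67%) were under 0.05 unadjusted. Because this contrast helped to choose the genes, and Zmat3 passed the filter through its KO values, these p-values do not test them and nothing is read from the counts. The median difference was 0.31 for the 9 genes and 0.00 for all genes tested. The count of 4 genes became 2 without WT replicate 3, 4, 5 or 6.

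**Figure D3:**
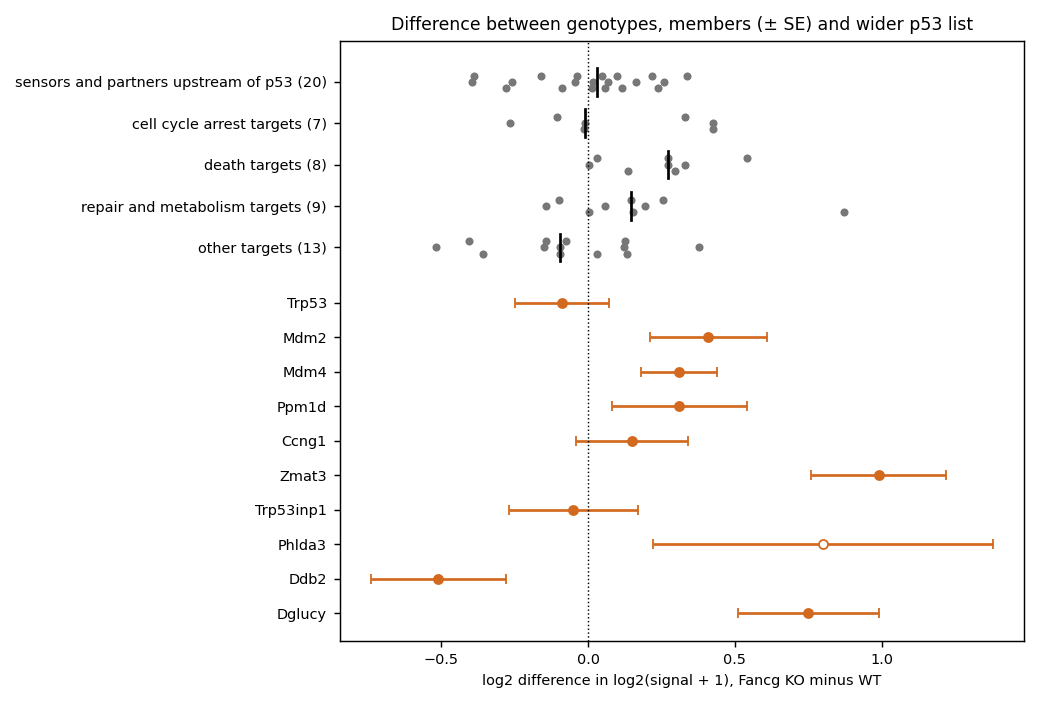
Difference between genotypes in log2(signal + 1), KO minus WT, for the 10 genes (orange, ± SE; open symbol for Phlda3, which was below the filter) and for the 57 tested genes of a wider p53 list in 5 groups (grey points, black line at the group median, number of genes in brackets). Of the 9 tested genes Zmat3 at 0.99 and Dglucy at 0.75 lay highest and Ddb2 at -0.51 lowest, Phlda3 at 0.80 had the widest SE (0.58), and the medians of the wider groups lay between -0.10 and 0.27.

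Read library by library, the 9 tested genes did not all move together. The number of them above their median over 12 libraries was 4, 2, 4, 3, 4 and 3 in WT replicates 2 to 7, and 4, 6, 5, 6, 7 and 6 in KO replicates 2 to 7. KO replicate 2 was like the WT libraries in this count: it was the lowest of all libraries for Trp53inp1 and Ddb2, although its Zmat3, at 17.6, was above every WT library. The highest value of each gene was spread over many libraries, with Mdm2 and Ccng1 in KO replicate 6, Zmat3 and Phlda3 in KO replicate 4, Mdm4 in KO replicate 5 and Dglucy in KO replicate 3. Trp53, Ppm1d, Trp53inp1 and Ddb2 had their highest value in a WT library.

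**Figure D4:**
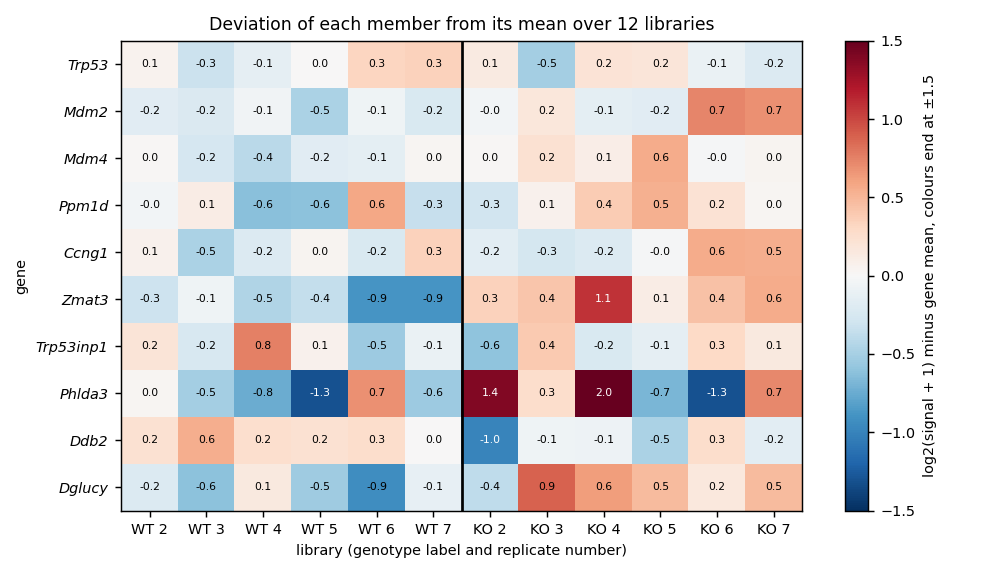
Deviation of log2(signal + 1) from the mean of each gene over 12 libraries, with libraries in columns (WT left and KO right of the black line) and genes in rows; colours end at ±1.5 and numbers give the deviation. The Zmat3 row changes sign between WT and KO libraries, and the highest deviations of Mdm2 and Ccng1 share KO replicates 6 and 7.

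The same was seen when libraries with the same replicate number were set beside each other, which the labels do not tie to a shared litter or day. The KO library was higher for 4 of 9 genes in replicate 2, 6 in replicate 3, 5 in replicate 4, 6 in replicates 5 and 6 and 7 in replicate 7. The share of all genes was not counted for each number, and this contrast helped to choose the genes. These counts are therefore a description only. The median difference over the 9 genes was -0.18 for replicate 2 and between 0.24 and 0.79 for the others, and the median over all genes lay between -0.06 and 0.09. Zmat3 and Mdm4 were higher in the KO library for 6 of 6 numbers, as were 1.81% of all genes, and Ddb2 was lower for 6 of 6, as were 1.71%. Mdm2 and Dglucy were higher for 5, and Trp53, Ppm1d, Ccng1 and Trp53inp1 for 3. Phlda3 was also higher for 5, on too few reads to describe a direction.

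Agreement between genes was also described by the correlation of their deviations from the mean of their own genotype, which leaves out the contrast between genotypes. The points are 12 libraries and share depth and size factor, and no p is given. Over the 36 pairs of the 9 genes the median Pearson r was 0.053, with 21 pairs above 0 (58.3%), against a median of 0.012 and 51.2% above 0 over all 39484941 pairs of genes tested. The median of the 36 pairs ran from -0.10 without KO replicate 2 to 0.16 without KO replicate 6 when libraries were left out in turn, so its sign rests on single libraries. When each library was rescaled to the same total without Lars2, the median r was 0.63 for the 36 pairs and 0.45 for all pairs, so the level of these correlations follows the scaling.

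The pair with the highest correlation was Trp53inp1 with Dglucy, at a Pearson r of 0.76 and a Spearman rho of 0.67 over 12 libraries. It was 0.88 within the WT and 0.65 within the KO libraries. The 2 libraries of a genotype farthest from its Trp53inp1 median were then left out. The r became 0.41 without WT replicates 4 and 6 and -0.86 without KO replicates 2 and 3. Leaving out the extremes narrows the range and leaves 4 points, so nothing particular to these libraries is read from it. Mdm2 with Ccng1 followed at r = 0.59 (rho 0.45), from -0.31 in WT and 0.89 in KO libraries. In KO libraries it was -0.74 without replicates 6 and 7, the 2 farthest from the Mdm2 median, with the same limit. The lowest were Trp53 with Trp53inp1 at r = -0.59 (rho -0.58), Trp53 with Ddb2 at r = -0.52 (rho -0.56) and Mdm2 with Mdm4 at r = -0.47 (rho -0.52). Trp53 had an r of -0.35 with Mdm2 and of -0.38 with Zmat3, and Mdm2 with Zmat3 had an r of -0.09 (rho -0.01).

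**Figure D5:**
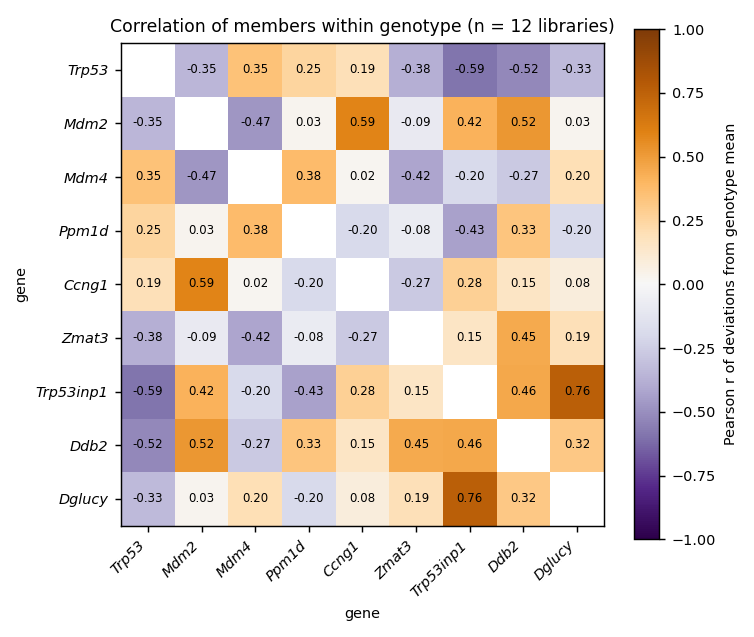
Pearson r between the 9 tested genes of their deviations from the genotype mean in log2(signal + 1), over 12 libraries; brown is positive, purple negative, and the diagonal is blank. Trp53inp1 with Dglucy (0.76) and Mdm2 with Ccng1 (0.59) were the highest pairs and Trp53 with Trp53inp1 (-0.59) the lowest.

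Over all genes tested, those most like Mdm2 within genotypes were Ccdc34 (r = 0.91, rho 0.86), Abhd11 (r = 0.90, rho 0.91) and Terf1 (r = 0.90, rho 0.79). Those most like Zmat3 were Mospd2 (r = 0.91, rho 0.93), Hist2h2aa1 (r = 0.90, rho 0.87) and Agbl5 (r = 0.89, rho 0.83). All 6 were picked as the top of 8887 genes over 12 libraries, and none is one of the 10 genes.

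A wider list of 88 genes around p53 was set beside the 10 genes, and 87 of them were in the table and 57 were tested. Of the 57, 35 were higher and 22 lower in KO libraries, with a median difference of 0.05, against 0.00 over all genes. None had an adjusted p under 0.05 (limma), and 2 (3.51%) had an unadjusted p under 0.05, against 3.67% of all genes. Hipk2, a kinase that phosphorylates p53, had a signal of 75.8, 102 and 117 in WT and 63.0, 67.8 and 111 in KO libraries, a difference of -0.39 (SE 0.16; limma adjusted p = 0.9996). Fdxr, which encodes a mitochondrial reductase of steroid and iron-sulfur metabolism, had 1.64, 7.22 and 15.3 in WT and 7.45, 11.7 and 20.1 in KO libraries, a difference of 0.87 (SE 0.41; limma adjusted p = 0.9996). The WT mean of Fdxr was under 10, so it too passed through its KO values.

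By role, the 20 tested sensors and partners upstream of p53 had a median difference of 0.03, with 12 higher and 8 lower. They ran from Sirt1, a deacetylase of p53, at 0.34 (SE 0.24) to Atm, the kinase that answers double-strand breaks, at -0.40 (SE 0.25). Chek1, a checkpoint kinase, stood at -0.04 (SE 0.28). The upstream genes thus lay on both sides of 0.

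Cell cycle arrest targets, 7 tested, had a median of -0.01, with 3 higher and 4 lower, from Gtse1, a regulator of p53 in G2 phase, at 0.43 (SE 0.26) to Sesn1, a stress-induced inhibitor of mTORC1 signaling, at -0.26 (SE 0.13). Sesn1 was the only tested gene of the wider list whose groups did not overlap: 66.5 to 96.3 in KO and 97.0 to 115 in WT libraries (limma adjusted p = 0.9996). Such groups made up 0.0900% of all genes tested. Cdkn1a, which encodes the cell cycle inhibitor p21, was below the filter, at 6.60, 9.63 and 14.8 in WT and 2.99, 8.07 and 11.8 in KO libraries, a difference of -0.43 (two-sided exact permutation test, p = 0.242). Cdkn1a rests on about 2.22 to 21.9 reads per library.

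Of 13 death targets, 8 were tested, and all 8 had a difference above 0, as did 50.7% of all genes tested. Pidd1 (0.003) and Casp1 (0.029) lay near 0. The median of the 8 was 0.27, and none had an unadjusted limma p under 0.05. Bax, a pore-forming protein of apoptosis, was the highest at 0.54 (SE 0.27), with 7.68, 10.8 and 16.1 in WT and 10, 16.5 and 25.1 in KO libraries (limma adjusted p = 0.9996), and Pidd1, an adaptor of caspase-2, the lowest at 0.00 (SE 0.23). Bbc3 and Pmaip1, which encode the apoptosis inducers PUMA and NOXA, were below the filter, with differences of 0.58 (two-sided exact permutation test, p = 0.327) and 1.04 (two-sided exact permutation test, p = 0.145). Both medians were under 10 in either genotype.

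Repair and metabolism targets, 9 tested, had a median of 0.15, with 7 higher and 2 lower, from Fdxr to Gpx1, a glutathione peroxidase, at -0.14 (SE 0.19). The 13 tested genes of other functions had a median of -0.10, with 5 higher and 8 lower, from Psrc1, a spindle protein, at 0.38 (SE 0.32) to Trp53i11 at -0.52 (SE 0.33). Ddb2, at -0.51, lay below all 9 repair and metabolism targets of the wider list.

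Cell type markers were read in the same libraries. Within the LSK markers, 3 of 7 were higher in KO libraries and the summed signal ran from 1343 to 1772 in WT and from 1046 to 1583 in KO libraries. Flt3, a receptor of lymphoid-primed progenitors, was at 363 to 646 in WT and 178 to 523 in KO libraries, a difference of -0.51 (SE 0.23), and Slamf1, a marker of stem cells, differed by 0.69 (SE 0.36; limma adjusted p = 0.9996 for both). All 3 megakaryocyte markers were higher in KO libraries, as were 50.7% of all genes tested. Only 1 of the 3 was above 0 in every library. Their sum was 13.8 to 52.4 in WT and 23.8 to 84.1 in KO libraries. Pf4 and Gp1bb were below the filter, with differences of 1.04 (SE 0.92) and 0.60 (SE 0.67). Itga2b ran from 11.8 to 19.2 in WT and from 19.2 to 45.4 in KO libraries (difference 0.72, SE 0.23, limma adjusted p = 0.9996). Its highest value was in KO replicate 7.

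Summed markers of other cells overlapped in range between genotypes. Granulocyte and monocyte markers summed to 367 to 1876 in WT and 460 to 2048 in KO libraries (4 of 7 higher in KO), led by Mpo, which was highest in replicate 6 of both genotypes. Erythroid markers summed to 10.3 to 76.7 in WT and 19.6 to 100 in KO libraries (3 of 5 higher). T cell markers summed to at most 6.64 in any library (1 of 4 higher). The part of these markers in the differences of the 10 genes was not tested.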

How the data were processed

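RNA-seq libraries of sorted LSK cells from 6 WT and 6 Fancg KO mice were compared. The deposited table holds normalized signal for 35999 gene names in each library, taken from its values as read count estimates that the authors scaled by 1 factor per library. Kallisto is named in the submitters' processing notes, and the mouse genome build and annotation are not given in the sources used here. Columns were matched to libraries by title, and 0 columns were unused. Of the names, 35929 were found in GENCODE M21 (GRCm38), from which positions and exon lengths were taken.

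Signal was used as deposited. Genes that averaged a signal of 10 or more were fitted on log2(signal + 1) with limma 3.58.1 in R 4.3.3 (two-sided, empirical Bayes with trend; Benjamini-Hochberg over 8887 genes), without covariates, and the fit was tested on simulated data. Genes below the filter in the wider list had an exact permutation test. With 1 library per mouse, p-values measure the spread between these mice and leave out the likeness of same-numbered libraries. Reads per library were approximated from the spacing of low values, and intervals for counting error were not computed.

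The 10 genes, the wider p53 list and the markers were chosen with earlier results of these data known. Named were the 10 genes, Cdkn1a, Bax, Bbc3, Pmaip1, Atm, Chek1, wider-list genes with an unadjusted p under 0.05, the highest and lowest tested gene of each group, the 3 genes most like Mdm2 and Zmat3, and Fancg. Alternatives were other pseudocounts (0.5 and 5), filters and scalings, limma without trend, a replicate block, leaving out each library, and leaving out WT replicate 3 and KO replicate 7. A planned comparison of MDM2 and MDM4 proteins was not made, since protein sequences were not used here. The result of 1 marker list is not reported here.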

Additional observations from a re-analysis of the deposited data

Results flagged for a closer look

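A library far from the other 5 of its genotype was found in 2 of 50 sets of 6 libraries by Dixon's criterion at the 95% level, where chance gives about 1 in 20. For Mdm4 the signal of KO replicate 5 was 259, and those of the 5 remaining KO libraries lay between 173 and 205. For Hipk2 it was 111 in KO replicate 6, and between 63.0 and 79.7 in the remaining KO libraries.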

How the results depend on the processing

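None of the differences of the 10 genes moved by more than the spread between replicates under any alternative. Most alternatives could not have moved them that far, so stability is not read from this. The replicate block, the fit without trend and the filters leave the difference of a gene unchanged by construction. Leaving out a single library shifts a group mean by less than this spread. The sign changed only for Ccng1 (1 setting) and Trp53inp1 (3 settings). The number of tested genes of the 10 with an unadjusted p under 0.05, 4 as reported, was 1 with a filter at a mean signal of 50, 2 after rescaling without Lars2, 2 without WT replicate 3 and KO replicate 7, and 2 to 5 when single libraries were left out, with 2 without WT replicate 3, 4, 5 or 6. With the filter at 50, only 4 of the 10 genes remained, of which 2 were higher in KO libraries, with a median difference of 0.05. The median correlation within genotypes was 0.63 after rescaling without Lars2, and the median difference of all genes then shifted by 0.054. The wider list, with 2 genes under an unadjusted p of 0.05 as reported, had 0 after rescaling without Lars2 and 0 to 4 when single libraries were left out, with 0 without WT replicate 2 or 7, 1 without WT replicate 4 or KO replicate 3, 4 or 7, and 4 without KO replicate 2. The cause of these changes was not tested, apart from the fewer genes left by the filter. The mean correlation was 0.20 for same-numbered libraries and -0.04 for different numbers. The -0.04 is no separate baseline, because deviations from a genotype mean sum to 0 over its libraries. Of 12 libraries, 9 correlated best with their own number. The correlation was above 0.1 for 4 of 6 numbers and 0.09 for the other 2. Libraries with the same number thus deviated together to some degree, and what they share was not given. The main fit left the number out, so its SEs and p-values do not take this likeness into account. In a fit with a replicate block, the wider list had 1 gene under an unadjusted p of 0.05, the 10 genes had 3, Ddb2 no longer among them, and 476 of 8887 genes (5.36%) did, against 326 without it, with 0 after adjustment in both. Depth limits the low genes: Phlda3 and Zmat3 rest on few reads per library.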
